A study of Mus musculus with 12 samples.

Results

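The core pluripotency factors described here are the 5 genes Nanog, Pou5f1, Sox2, Sall4 and Zfp42 in mouse embryonic stem (ES) cells. They were found by gene name on a single-colour Agilent array, which carried 7 probes for them among 41174 probes and 27716 named genes. Nanog, Pou5f1 and Sox2 had 1 probe each, and Sall4 and Zfp42 had 2 each. All 7 probes were well above background on all 12 arrays, none was saturated or marked as irregular, and all 5 genes were among the 21353 tested.

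RNA came from a pair of ES cell lines, each carrying a GFP reporter named for the germ cell genes Stella (Dppa3) or Dazl. Both lines grew on γ-irradiated mouse embryonic fibroblasts as feeders, with leukemia inhibitory factor (LIF) in both media. The FBS arm was in DMEM with 15% fetal bovine serum, and the serum-free arm, called the 2i condition in the labels, was in B27N2 medium. For the 2i experiments PD0325901 (1 µM), which inhibits MEK, and Kenpaullone (5 µM), which inhibits GSK3β, are named; whether the FBS arm, or the serum-free cells at day 0, received them is not stated. Cells were taken at days 0, 3 and 10, which gives 6 groups of 2 arrays, 1 of each line. Nothing states that arrays of a line came from separate cultures. With the line in the fit, the p-values rest on how unevenly the 2 lines differed across the 6 groups. That spread may in part be technical. Each line stands for itself alone, the feeders were in the dish, and in bulk RNA fewer cells of a type and less RNA per cell cannot be told apart.

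Pou5f1 encodes Oct4, the POU-domain factor without which ES cells lose pluripotency, and Sox2 encodes the HMG-box partner that binds DNA beside it. Nanog encodes a homeodomain factor that varies from cell to cell in serum culture and is raised when the MEK and GSK3 pathways are blocked. Sall4 is a zinc finger factor that binds Oct4 and Nanog, and Zfp42 (Rex1) is a zinc finger gene widely used as a marker of naive ES cells. Oct4 and Sox2 bind composite sites made of an octamer and a SOX motif, also in each other's regulatory DNA.

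Stretches of promoter show which members carry such letters close to their start. RefSeq windows of the mouse build GRCm38.p6, from 250 bases before to 50 bases after a start, were at hand for 4 of the 5 members (6 windows), and for Sall4 none was used here. The letters searched on both strands were the octamer ATGCAAAT, its first 7 bases ATGCAAA (every octamer therefore also counts as this heptamer) and the SOX hexamer CATTGT. Matches are in capitals, read 5′ to 3′ on the gene's strand, in 80 bases around the heptamer at chr6:122707379-122707458 (Nanog, plus strand), chr3:34649861-34649940 (Sox2, plus strand) and chr8:43307150-43307229 (Zfp42, minus strand).
Nanog: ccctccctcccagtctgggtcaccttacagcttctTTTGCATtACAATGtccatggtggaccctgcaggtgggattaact
Sox2: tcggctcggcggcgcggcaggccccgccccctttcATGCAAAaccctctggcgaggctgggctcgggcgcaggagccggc
Zfp42: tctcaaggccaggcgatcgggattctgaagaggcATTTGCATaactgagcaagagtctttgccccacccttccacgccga

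In the Nanog window the heptamer began at -75 from the start and the SOX hexamer at -67, with 1 base between them. Of 32851 windows of 300 bases, 2 held that arrangement (0.00609%), and both were overlapping windows of Nanog around the same letters. The Zfp42 window held a full octamer from -186, which 1.74% of windows hold, and the Sox2 window a heptamer from -99, which 4.63% hold. Neither Pou5f1 window held the heptamer; the one at chr17:35508557-35508856 held a SOX hexamer, as 12.6% of all windows do. These matches describe letters and not binding, and the arrays say nothing of binding.

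Levels are given as multiples of the array's 75th percentile, and differences as log2 differences from a limma fit of the 6 groups and the cell line over all 12 arrays, with p-values adjusted over all 21353 genes. Differences were called at an adjusted p under 0.05. An unadjusted p under 0.05 was common: in limma 3616 to 8442 of the 21353 genes had one, depending on the comparison. The arrays lay on 3 slides of 4 arrays each, and 64% to 74.4% of their spots were well above background. Slide 1 held only FBS arrays, slide 3 only serum-free arrays, and slide 2 held both. Every comparison of the arms within a line crossed slides, so arm and slide cannot be fully told apart. The ES cell marker Dppa5a stood at 216 to 473 times the 75th percentile, and Tdgf1 and Utf1 were also well above background on all 12 arrays, as were the 18 fibroblast markers of the feeders. The summed level of those 18 was 76.5 to 88.2 in FBS at day 0, 102 to 166 at day 3 and 69.1 to 105 at day 10. In serum-free medium it was 70.6 to 76.6, 27.9 to 37.9 and 55.4 to 79.8.

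Nanog made the largest move of the 5 genes over the 13 comparisons, rising 2.75-fold in FBS between day 0 and day 10, and it also rose by day 3 in both media. Zfp42 rose in FBS at days 3 and 10 from a low start, and it was the only member that passed the test between the lines. Sall4 was lower in serum-free medium than in FBS at day 3, on 1 of its 2 probes. Sox2 and Pou5f1 passed no test in any of the 13 comparisons, 12 planned and 1 added.

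**Figure D1:**
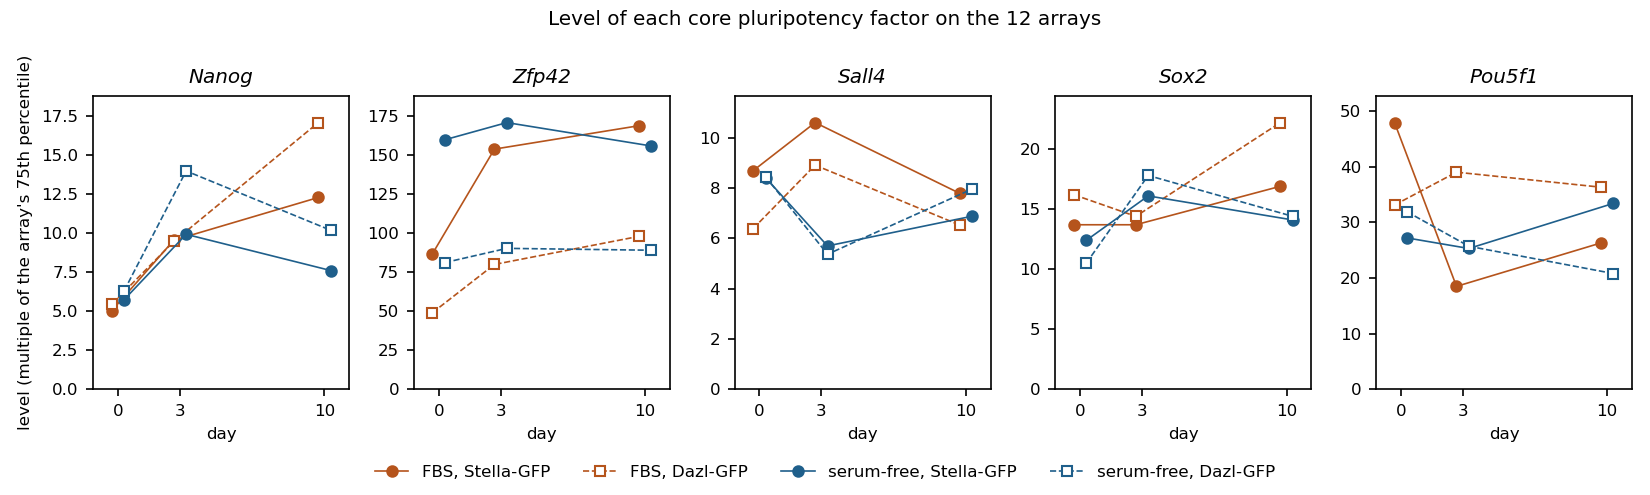
Level of the probe that stands for each gene (multiple of the array's 75th percentile) against day, with 1 point per array. Orange is FBS and blue is serum-free medium, filled circles are Stella-GFP and open squares Dazl-GFP. Nanog climbs from 5.05 and 5.46 in FBS at day 0 to 12.3 and 17.1 at day 10, the Zfp42 points split by line, and the Pou5f1 lines cross.

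Pou5f1 stood at 47.9 (Stella-GFP) and 33.1 (Dazl-GFP) in FBS at day 0, at 18.5 and 39 at day 3, and at 26.3 and 36.3 at day 10. In serum-free medium it was 27.2 and 31.9 at day 0, 25.3 and 25.7 at day 3, and 33.4 and 20.8 at day 10. The highest array, FBS Stella-GFP at day 0, was 2.59-fold above the lowest, FBS Stella-GFP at day 3. Each of the 6 groups overlapped its neighbour in the order of means, which ran from FBS day 0 (40.5) to serum-free day 3 (25.5).

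The lines differed in sign for Pou5f1 in several comparisons. From day 0 to day 3 in FBS the log2 difference was -1.37 in Stella-GFP, across 2 slides, and 0.24 in Dazl-GFP, within 1 slide. Between the arms it was -0.82 and -0.05 at day 0, 0.45 and -0.60 at day 3, and 0.34 and -0.81 at day 10, Stella-GFP given before Dazl-GFP. In serum-free medium day 3 minus day 0 had the same sign in both, -0.10 and -0.31. The fitted arm differences were -0.43 (SE 0.40, 95% interval -1.36 to 0.50, adjusted p = 0.534) at day 0, -0.07 (SE 0.40) at day 3 and -0.23 (interval -1.16 to 0.70) at day 10. With the slide as a block the 3 values turned to 1.32, 0.99 and 1.20 (adjusted p = 0.339, 0.101 and 0.387). Over time Pou5f1 differed from day 0 by -0.57 and -0.36 in FBS and by -0.21 and -0.16 in serum-free medium (adjusted p = 0.384 to 0.829). The sign of its differences changed with the line and with the slide term, and no direction is given for Pou5f1.

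Sox2 stood at 13.7 (Stella-GFP) and 16.2 (Dazl-GFP) in FBS at day 0, at 13.7 and 14.4 at day 3, and at 16.9 and 22.2 at day 10. In serum-free medium the pairs were 12.4 and 10.5, 16.1 and 17.8, and 14.1 and 14.4. By mean, FBS at day 10 was the highest group and serum-free at day 0 the lowest. Its spread over the 12 arrays was small, since 19% of the tested genes had a smaller SD.

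In serum-free medium Sox2 differed between day 3 and day 0 by 0.57 (1.49-fold, SE 0.18, interval 0.14 to 1.00), which did not pass after adjustment (adjusted p = 0.0779). Both lines had the same sign, 0.38 in Stella-GFP and 0.76 in Dazl-GFP, each within 1 slide. In FBS the same step was -0.08 (interval -0.51 to 0.34, adjusted p = 0.801), and day 10 minus day 0 was 0.38 (adjusted p = 0.224). The arms differed by -0.38, 0.27 and -0.44 at days 0, 3 and 10 (adjusted p = 0.261, 0.297 and 0.189). Sox2 passed at 0.55 and 0.57 for the serum-free step under 2 alternatives, a background correction with repaired local backgrounds (adjusted p = 0.0454) and a variance trend (adjusted p = 0.0336).

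Nanog stood at 5.05 (Stella-GFP) and 5.46 (Dazl-GFP) in FBS at day 0. It reached 9.56 and 9.48 at day 3 and 12.3 and 17.1 at day 10. In serum-free medium it was 5.76 and 6.33 at day 0, 9.94 and 14 at day 3, and 7.62 and 10.2 at day 10. The 4 day 0 arrays were the 4 lowest of the 12, and the FBS Dazl-GFP array at day 10 was the highest, 3.38-fold above the lowest.

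In FBS, day 10 minus day 0 was 1.46 for Nanog (SE 0.19, interval 1.03 to 1.89, adjusted p = 0.00423), with 1.28 in Stella-GFP and 1.65 in Dazl-GFP. The Dazl-GFP pair lay within 1 slide. That change was larger than the change of 93.1% of tested genes, and 12.9% of genes were called in the comparison. It passed in all 23 alternatives run, with values of 1.34 to 1.75. In the same groups the fibroblast sum overlapped (76.5 to 88.2 at day 0, 69.1 to 105 at day 10), and so did the primitive endoderm sum (22.4 to 30.4 and 27.5 to 31.9). The neuroectoderm sum was higher at day 10 (6.77 to 11.5, then 18.8 to 19.6), with 2 of its 8 markers up and 1 down, and the macrophage sum lower (3.08 to 9.07, then 2.48 to 2.74), with 0 of 12 past the limma test and 3 at an unadjusted p under 0.05. Such a p was found for 6083 of 21353 genes in that comparison. The part of these markers in the result was not tested.

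By day 3 Nanog had risen by 0.86 in FBS (1.81-fold, SE 0.19, adjusted p = 0.0266; 12% of genes called) and by 0.97 in serum-free medium (1.95-fold, SE 0.19, adjusted p = 0.0186; 13.9% called). The lines gave 0.92 and 0.80 in FBS, and 0.79 and 1.14 in serum-free medium, where both pairs lay within a slide. The FBS call was lost with the slide as a block (0.84, adjusted p = 0.115), and without the FBS arrays of day 0 or day 3, namely day 0 Stella-GFP (adjusted p = 0.054), day 0 Dazl-GFP (0.0918), day 3 Stella-GFP (0.178) and day 3 Dazl-GFP (0.071). The serum-free call was lost without any of its own 4 arrays, at adjusted p = 0.0741 and 0.138 without the day 0 Stella-GFP and Dazl-GFP arrays and 0.0787 and 0.12 without those of day 3. The fibroblast sum moved the other way in the media, up to 102 to 166 in FBS and down to 27.9 to 37.9 in serum-free medium; its part in the result was not tested.

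After day 3 the arms parted for Nanog without passing a test. Day 10 minus day 3 was 0.60 in FBS (interval 0.17 to 1.04, adjusted p = 0.111; 1.46% of genes called) and -0.42 in serum-free medium (interval -0.85 to 0.01, adjusted p = 0.202; 2.23% called). At day 10 the serum-free minus FBS difference was -0.71 (1.64-fold, interval -1.15 to -0.28, adjusted p = 0.0705; 5.62% called), with -0.69 and -0.74 in the lines, all across slides. It passed under 4 alternatives, for example at -0.78 with quantile normalization (adjusted p = 0.0499). Serum-free day 10 minus day 0 was 0.55 (interval 0.12 to 0.98, adjusted p = 0.124; 5.25% called). The difference of the day 10 changes, serum-free minus FBS, was -0.92 (interval -1.52 to -0.31, adjusted p = 0.165; 0.0656% called), and that of the day 3 changes was 0.11 (interval -0.50 to 0.72, adjusted p = 0.839; 1.63% called). The change from day 3 to day 10, a contrast added after seeing the data in which 9.5% of genes were called, differed between the arms by -1.02 (interval -1.63 to -0.41, adjusted p = 0.0511), and it passed in 6 of 23 alternatives.

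**Figure D2:**
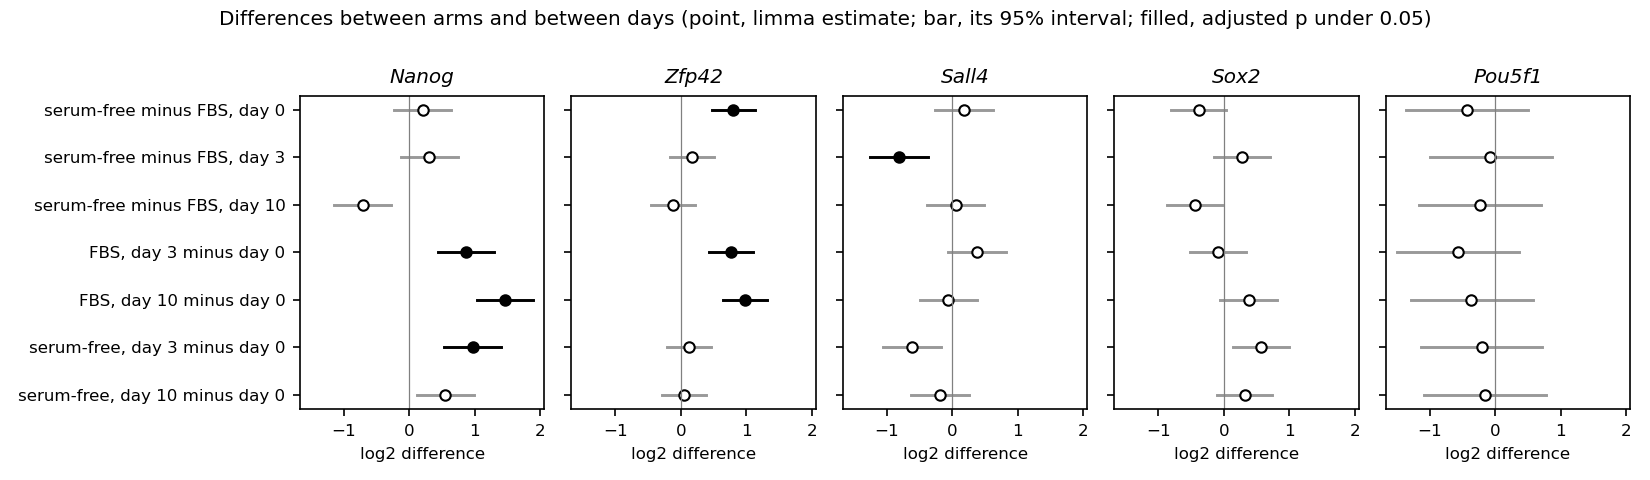
Log2 differences of the 5 genes in 7 comparisons; points are limma estimates, bars their 95% intervals and filled points those with an adjusted p under 0.05. Nanog at 1.46 in FBS at day 10 is the point farthest from 0, and the Pou5f1 bars are the widest.

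Sall4 was measured by 2 probes, and the brighter stands for the gene. That probe gave 8.69 (Stella-GFP) and 6.39 (Dazl-GFP) in FBS at day 0, 10.6 and 8.91 at day 3, and 7.79 and 6.53 at day 10. The serum-free pairs were 8.41 and 8.45 at day 0, 5.7 and 5.37 at day 3, and 6.88 and 7.96 at day 10. On that probe the day 3 groups had the highest (FBS) and the lowest (serum-free) mean of the 6. On the dimmer probe FBS at day 3 was also highest, but serum-free at day 3 ranked 4 of 6 and FBS at day 10 was lowest.

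At day 3 Sall4 was lower in serum-free medium, with a log2 difference of -0.81 (1.76-fold, SE 0.19, interval -1.25 to -0.37, adjusted p = 0.0233), with -0.89 in Stella-GFP and -0.73 in Dazl-GFP. In that comparison 22.6% of all genes were called, so 1 of 5 members is near the background share. The median of all genes was itself -0.21 there, which leaves -0.60 for Sall4 relative to it; quantile normalization moved that median to -0.08 and Sall4 to -0.61 (adjusted p = 0.033). Each line's pair lay across slides, and the slide that held a day 3 array of each arm gave -0.98 for serum-free Dazl-GFP minus FBS Stella-GFP. With the slide as a block the value was -0.84 (adjusted p = 0.135), and without any of the 4 day 3 arrays the call was lost: FBS Stella-GFP (-0.75, adjusted p = 0.108), FBS Dazl-GFP (-0.88, 0.0965), serum-free Stella-GFP (-0.78, 0.111) and serum-free Dazl-GFP (-0.84, 0.107).

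The dimmer Sall4 probe read 0.56 to 1.26 over the 12 arrays and gave -0.33 (SE 0.25) at day 3, which did not pass over all probes (adjusted p = 0.341). Across the 12 arrays the log2 levels of the 2 Sall4 probes correlated at r = 0.093, as a description. The array's annotation gives each probe a transcript of its own, and which of them follows the gene was not tested. Within the arms the brighter probe moved by 0.38 in FBS (adjusted p = 0.22) and by -0.61 in serum-free medium (interval -1.05 to -0.17, adjusted p = 0.0722) from day 0 to day 3. That serum-free step of Sall4 passed in 5 of 23 alternatives. The difference of the 2 changes was -0.99 (interval -1.61 to -0.37, adjusted p = 0.0893). For the dimmer probe limma gave 0.18 in FBS, 0.12 in serum-free medium and -0.06 for their difference (adjusted p over probes = 0.682, 0.798 and 0.937).

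Markers of other cells differed between the same day 3 groups, where 22.6% of all genes were called and their median was -0.21. Of the 18 fibroblast markers 16 were lower in serum-free medium (median -2.20), led by S100a4 at -4.86, and of 12 macrophage markers 8 were lower (median -2.68), with sums of 1.28 to 1.49 against 5.99 to 10.2. Of 13 primitive endoderm markers 9 were higher (median 2.01), with sums of 39.5 to 65.2 against 20.7 to 21.6, and of 8 neuroectoderm markers 6 were lower (median -1.68), with sums of 4.75 to 7.42 against 19.2 to 26.5. All markers of the fibroblast and neuroectoderm lists were well above background on every array, while 9 of 12 macrophage markers were on each serum-free day 3 array and 12 or 13 of 13 endoderm markers on the FBS day 3 arrays. Their part in the Sall4 difference was not tested.

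**Figure D3:**
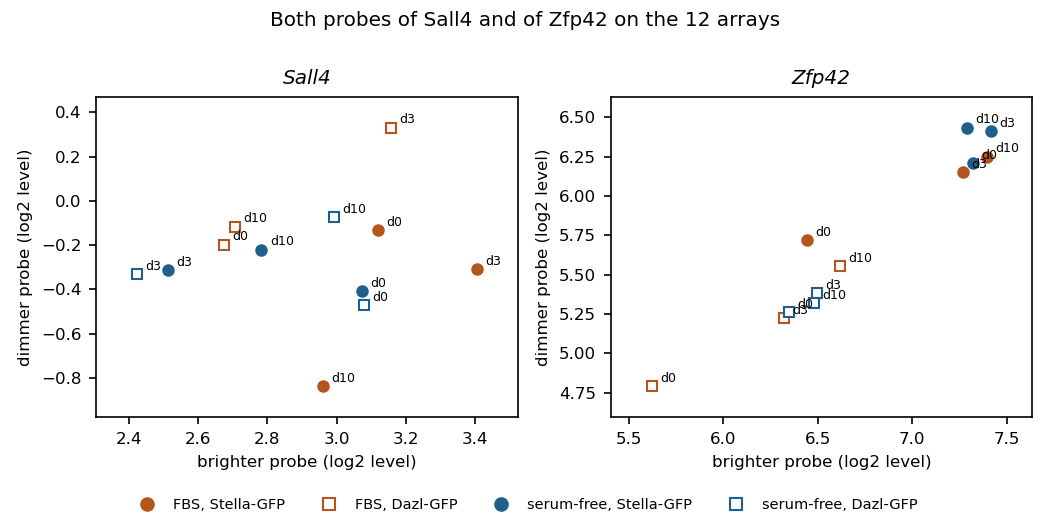
Log2 level of the dimmer probe against the brighter probe for Sall4 and for Zfp42, 1 point per array, labelled by day. The Zfp42 probes rise together (r = 0.968 over 12 arrays), and the Sall4 probes show no common order (r = 0.093).

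Zfp42 was higher in Stella-GFP than in Dazl-GFP in each of the 6 groups. In FBS it stood at 87 (Stella-GFP) and 49.2 (Dazl-GFP) at day 0, at 154 and 80.1 at day 3, and at 169 and 98.1 at day 10. The serum-free pairs were 160 and 81.3, 171 and 90.4, and 156 and 89.2. Every Stella-GFP array outside FBS day 0 was at 154 or more and every Dazl-GFP array at 98.1 or less.

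The line difference, Dazl-GFP minus Stella-GFP, was -0.88 for Zfp42 (1.83-fold lower, SE 0.08, adjusted p = 0.00373), and 2.69% of all genes were called. By group it ran from -0.78 to -0.97. Both lines of FBS day 0 lay on 1 slide (-0.82), and so did both of serum-free day 10 (-0.81). Its second probe gave -0.94 (adjusted p over probes = 0.00395). With the slide as a block the value was -0.82 but no longer passed (adjusted p = 0.184). In Nanog, Pou5f1, Sox2 and Sall4 the lines differed by 0.27, 0.10, 0.11 and -0.14 (adjusted p = 0.258 to 0.873). For Pou5f1 the 6 pairs ran from -0.69 to 1.08, and both pairs that shared a slide were below 0 (-0.54 in FBS at day 0, -0.69 in serum-free medium at day 10).

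Within FBS Zfp42 rose by 0.76 at day 3 (1.70-fold, SE 0.14, adjusted p = 0.0178) and by 0.97 at day 10 (1.96-fold, SE 0.14, adjusted p = 0.00672). The lines gave 0.82 and 0.70 at day 3 and 0.95 and 0.995 at day 10, Dazl-GFP within 1 slide. Without the line in the model the line difference entered the spread and both calls were lost (adjusted p = 0.413 and 0.311). The day 3 call was also lost with quantile normalization (0.52, adjusted p = 0.0873), with the slide as a block (0.74, adjusted p = 0.0819), and without the FBS day 3 Stella-GFP array (0.72, adjusted p = 0.123) or Dazl-GFP array (0.80, adjusted p = 0.0842). The day 10 call was lost without the FBS day 10 Dazl-GFP array (0.92, adjusted p = 0.0655). The second Zfp42 probe gave 0.43 (adjusted p = 0.118) and 0.65 (adjusted p = 0.0386). In the same groups the neuroectoderm sum was 6.77 to 11.5 at day 0, 19.2 to 26.5 at day 3 and 18.8 to 19.6 at day 10. Of its 8 markers, 1 was up at day 3, and 2 were up and 1 down at day 10 (12% and 12.9% of all genes called). The median of the 8 was 0.43 and -0.17 at these days, against 0.10 and -0.03 over all genes. At day 3, where 12% of all genes were called, the fibroblast sum was higher (102 to 166 against 76.5 to 88.2, with 2 of 18 markers up). The primitive endoderm sum was lower at that day (20.7 to 21.6 against 22.4 to 30.4, with 1 of 13 up and 1 down). Their part in the Zfp42 rise was not tested.

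In serum-free medium Zfp42 moved by 0.13 and 0.05 from day 0 to days 3 and 10 (intervals -0.21 to 0.46 and -0.28 to 0.38). Before that, at day 0, it was already 0.80 higher than in FBS (1.74-fold, SE 0.14, interval 0.47 to 1.13, adjusted p = 0.0461), with 0.88 in Stella-GFP and 0.73 in Dazl-GFP, while 1.89% of genes were called. This call rested just under the threshold. It was lost without each of the 12 arrays in turn (0.74 to 0.86, adjusted p = 0.0669 to 0.225), with the slide as a block (0.69, adjusted p = 0.406), with quantile normalization (0.77, adjusted p = 0.0617) and with no filter on dim genes (adjusted p = 0.07), and the second probe gave 0.48 (adjusted p = 0.145). The fibroblast sum was 70.6 to 76.6 in serum-free medium against 76.5 to 88.2 in FBS at day 0, and the primitive endoderm sum 29.2 to 42.3 against 22.4 to 30.4; their part was not tested. At days 3 and 10 the arms differed by 0.16 and -0.12 (adjusted p = 0.42 and 0.625). The day 3 and day 10 changes differed between the arms by -0.64 (adjusted p = 0.117) and -0.92 (adjusted p = 0.104) without passing. For the second probe limma gave -0.27 and -0.50 (adjusted p over probes = 0.488 and 0.279).

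Set beside all genes, the 5 members did not move as a block. In the 3 arm comparisons 1 was higher at day 0 (1.89% of all genes called), 1 lower at day 3 (22.6%) and 0 passed at day 10 (5.62%). At day 10 limma gave 2 members with an unadjusted p under 0.05, against 5256 of 21353 genes. In FBS 2 rose by day 3 (12% of all genes called) and the same count by day 10 (12.9%), Nanog and Zfp42 both times, with member medians of 0.38 and 0.38 against 0.10 and -0.03 over all genes. In serum-free medium 1 rose by day 3 (13.9% of all genes called) and 0 passed at day 10 (5.25%), with medians of 0.13 and 0.05 against -0.04 and 0.12. At that day 10 step 1 member had an unadjusted p under 0.05, against 5566 of 21353 genes. None passed in day 10 minus day 3 of either arm in the limma fit (3 in FBS and 0 in serum-free medium at an unadjusted p under 0.05) or in the differences of the day 3 or day 10 changes (3 and 2). Of 21353 genes, 5268, 5546, 5256 and 4162 had such an unadjusted p in these comparisons, in the same order. The shares called were 1.46%, 2.23%, 1.63% and 0.0656%.

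Across the 12 arrays Nanog and Sox2 correlated at r = 0.733, Sox2 and Sall4 at r = -0.606, and Pou5f1 and Zfp42 at r = -0.427, the other 7 pairs lying between -0.348 and 0.239. These are descriptions over arrays that share groups, lines and slides. Among 13458 genes above background on all arrays, without those known only by clone, RIKEN, LOC or accession names, the genes most like Nanog were Kit (r = 0.977), which encodes the receptor of stem cell factor, Prss35 (0.972) and Glrx (0.969). Nearest to Pou5f1 were Mrpl15 (0.98), Colec12 (0.958) and Dcaf13 (0.951), and nearest to Sall4 were Cfdp1 (0.972), Bysl (0.967) and Rufy1 (0.963). For Sox2 they were Slc36a1 (0.921), Eif4a2 (0.921) and Igfbp2 (0.915), and for Zfp42 Tmem87a (0.941), Itm2b (0.917) and Pcdh19 (0.912). The share of these genes above 0.9 was 0.446% with Nanog, 0.171% with Pou5f1, 0.936% with Sall4 and 0.0297% with each of Sox2 and Zfp42.

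Activators of the core genes moved in FBS alongside Nanog and Zfp42. Of 11 tested, 6 rose and 1 fell by day 3 (median 0.70 against 0.10 over all genes, 12% of which were called) and again by day 10 (median 1.18 against -0.03, 12.9% called). With quantile normalization 5 rose at each day. At day 10 the T-box factor Tbx3 was up by 3.17 (SE 0.42, adjusted p = 0.00482) and Tfcp2l1, a factor of the naive network, by 1.85 (adjusted p = 0.0108). Klf2, a Krüppel-like factor, rose by 1.78 by day 3 (adjusted p = 0.014). The member that fell was the homeobox gene Gbx2, by -3.02 and -3.72. In serum-free medium 2 rose and 1 fell by day 3 (median 0.60 against -0.04, 13.9% of all genes called; 4 rose with quantile normalization and 5 with the repaired background correction), namely Tbx3 (2.04), Klf4 (1.06) and Gbx2 (-4.01), and by day 10 no activator passed in limma while 5 had an unadjusted p under 0.05. Between the arms Nr5a2, a nuclear receptor that binds the Pou5f1 gene, was higher in serum-free medium at day 0 by 1.07 (adjusted p = 0.0333; 1.89% of all genes called). At day 3 Smad1 was higher (0.60) and Gbx2 lower (-1.73), while 22.6% of all genes were called. With quantile normalization 3 were higher and 0 lower, the Gbx2 call being lost (adjusted p = 0.0512). At day 10 none of the 11 passed (5.62% of all genes called), and 2 had an unadjusted p under 0.05 in limma. Of 21353 genes, 5566 had such an unadjusted p in serum-free day 10 minus day 0 and 5256 between the arms at day 10.

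**Figure D4:**
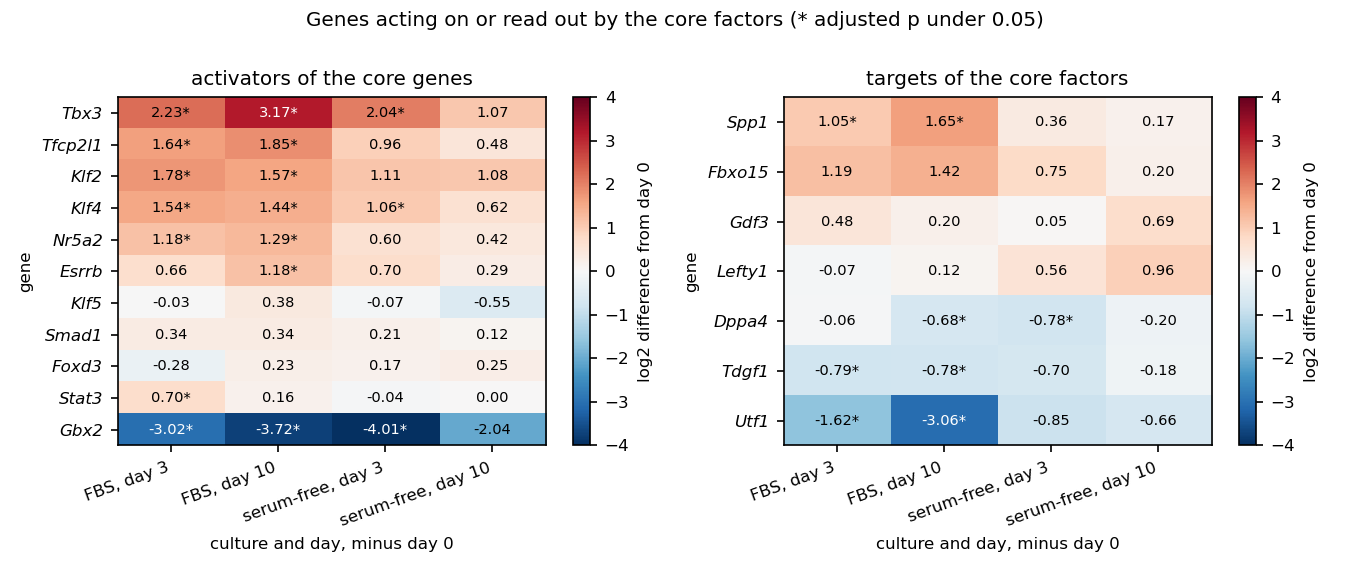
Log2 difference from day 0 of 11 activators and 7 targets of the core factors, by medium and day, with stars at an adjusted p under 0.05. Tbx3 at 3.17 and Gbx2 at -3.72 mark the ends of the FBS day 10 column of the activators, and Utf1 at -3.06 is the lowest target.

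Targets of the core factors did not follow Nanog in 1 direction. Of 7 tested, 1 rose and 2 fell in FBS by day 3 (12% of all genes called), and 1 rose and 3 fell by day 10 (12.9% called; median 0.12 against -0.03). Spp1, which encodes the secreted protein osteopontin, rose by 1.05 and 1.65, while the chromatin gene Utf1 fell by -1.62 and -3.06 (adjusted p = 0.031 and 0.00375) and Tdgf1, which encodes the Nodal coreceptor Cripto, by -0.79 and -0.78. In serum-free medium Dppa4 fell by -0.78 at day 3 (13.9% of all genes called). None passed at day 10 (5.25% called), where 2 had an unadjusted p under 0.05, as had 5566 of 21353 genes. Between the arms 1 target was lower in serum-free medium at day 0 (1.89% of all genes called), 2 were lower at day 3, near the share of all genes (22.6%), and 1 was higher and 2 lower at day 10 (5.62%). Lefty1, a secreted antagonist of Nodal, gave -2.40, -1.78 and -1.57 at days 0, 3 and 10. Tdgf1 gave -0.70 at day 3, a call lost with quantile normalization (-0.54, adjusted p = 0.0889). At day 10 Spp1 was lower by -0.86 and Utf1 higher by 2.19 (adjusted p = 0.0258 and 0.0217).

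Genes for proteins that bind Oct4, Nanog or Sall4 were called no more often than all genes at these steps: of 23 tested, 1 rose and 1 fell at each of FBS day 3, FBS day 10 and serum-free day 3, where 12%, 12.9% and 13.9% of all genes were called. At FBS day 3 quantile normalization gave 0 higher and 3 lower. Between the arms at day 3 (22.6% of all genes called), 3 were higher in serum-free medium and none lower, among them Rif1, a telomere and replication protein, by 2.38 (adjusted p = 0.0145) and the orphan nuclear receptor Nr0b1 (Dax1) by 1.19 (adjusted p = 0.00736). At day 10 the ARID protein gene Arid3b alone was higher, by 0.81 (5.62% of all genes called). At day 0 none passed (1.89% called), while 8 had an unadjusted p under 0.05, as had 4806 of 21353 genes.

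Of 5 repressors of the core genes tested, 1 was higher and 2 were lower in serum-free medium at day 3, where 22.6% of all genes were called. Nr2f2, an orphan nuclear receptor, was lower by -2.64 (adjusted p = 0.00143) and Cdx2, a trophoblast factor, at least 8.17-fold lower (adjusted p = 0.0276), while Gata6, a primitive endoderm factor, was higher by 2.52. The Cdx2 probe was well above background on both FBS arrays of day 3 and neither serum-free array, so its fold is a bound, taken against the lowest signal well above background on each array or the probe's own where higher. Nr6a1, which encodes the germ cell nuclear factor that silences Pou5f1, fell by -1.42 in FBS by day 3, and Tcf7l1 rose by 0.86. Of 12 relatives of the members tested, 2 were lower and 0 higher in serum-free medium than in FBS at day 3, where 22.6% of all genes were called. The POU factor Pou3f1 (Oct6) fell by -2.10 in FBS and by -3.53 in serum-free medium by day 3 and was lower by -2.72 in serum-free medium at that day (adjusted p = 0.005). The SOX gene Sox11 fell by -1.42 and -1.76 at the same step, and Sox1 by -1.75 in serum-free medium. Pou3f1 and Sox1 came back by 2.84 and 1.92 in serum-free medium between days 3 and 10. In FBS Sox15 rose by 0.98 by day 3, a call lost with the authors' table (adjusted p = 0.0623), and Sall1 rose by 0.83 in serum-free medium.

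Lineage genes usually described as silent in ES cells were tested as a further list of 10. Here Sox17, Gata6, Gsc and T were well above background on all 12 arrays, and Cdx2 on 8. At day 3 Sox17 and Gata6, of the endoderm, were higher in serum-free medium by 2.87 and 2.52, and the organizer gene Gsc lower by -2.70. Of the 10, 2 were higher and 3 lower there, Cdx2 among the latter, while 22.6% of all genes were called. The median of the 10 was 0.35, against -0.21 over all genes. The mesoderm gene T fell by -1.15 in serum-free medium by day 3, a call lost with the repaired background correction (-0.35, adjusted p = 0.101). In the same groups all 7 member probes were well above background too. Of the 154 values that the naming rule takes from these and the marker lists, 0 changed sign with quantile normalization, with the repaired background correction or with the authors' table, and 5 did with the plain background correction.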

How the data were processed

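RNA was hybridised to 12 single-colour arrays, 6 groups of 2. Spot intensities were deposited as processed signals from Agilent Feature Extraction 9.1.3.1, with background subtraction and detrending per the file headers, beside marks for spots above background. The authors' series table holds a ratio, each spot's background-subtracted signal over the array median, a scale found from its values; it served as an alternative. Log2 intensities minus each array's 75th percentile were averaged over spots of a probe, and the brightest probe stood for a gene. Genes above background on at least 2 arrays entered a limma 3.58.1 fit (R 4.3.3) of 6 groups plus the cell line, with eBayes and Benjamini-Hochberg adjustment over all 21353 genes at 0.05. The fit was tested on simulated data. Probe names came from RefSeq (22951 of 41174), the authors' table (7527) or the file. Figures used matplotlib.

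The members and gene lists were chosen with earlier results of these data known; 1 list gene is not reported here and was left out of its list's counts. Named list genes are the up to 2 highest and 2 lowest past 0.05 per comparison, and the 3 genes most correlated with each member. Same-numbered arrays are the same cell line, which pairs them: line differences correlated at -0.05 to 0.571 over 15 pairs of groups (median 0.156). No 2 arrays were copies (highest r = 0.9875). Alternatives were another normalization, background correction, filter, probe rule or source table, the slide as a block, no line term, a variance trend and each array left out. A contrast of the day 10 minus day 3 changes was added after seeing the data. The number of arrays limits the precision.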

Additional observations from a re-analysis of the deposited data

Results flagged for a closer look

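In both lines the changes of some members had one sign in serum-free medium and the other in FBS, though some of these changes were very small. None of these differences between the arms passed in limma after adjustment over all genes in the reported fit. From day 0 to day 3 the change of Sox2 was 0.65 higher in serum-free medium than in FBS (adjusted p = 0.174), and that of Sall4 differed by -0.99 (adjusted p = 0.0893). The Sall4 value is that of its brighter probe. Its dimmer probe moved by 0.18 in FBS and by 0.12 in serum-free medium, with the same sign in the fit. For that probe limma gave a difference between the arms of -0.06 (adjusted p over probes = 0.937). Sox2 changed by -0.002 and -0.167 in the FBS lines and by 0.38 and 0.76 in the serum-free lines. Over 23 alternatives Sox2 passed in 0 (lowest adjusted p = 0.0639) and Sall4 in 2 (lowest 0.0335).

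The remaining cases come from the contrast added after seeing the data, the change from day 3 to day 10 in serum-free medium minus that in FBS, where 9.5% of all genes were called and the median of all genes was 0.27. In this contrast 7555 of 21353 genes had an unadjusted p under 0.05. Nanog differed by -1.02 (interval -1.63 to -0.41, adjusted p = 0.0511), up by 0.36 and 0.85 in the FBS lines and down by -0.39 and -0.45 in the serum-free lines. Zfp42 differed by -0.29 (adjusted p = 0.334), with 0.13 and 0.29 in the FBS lines and -0.13 and -0.019 in the serum-free lines. Sox2 differed by -0.72 (adjusted p = 0.0986) and Sall4 by 0.87 (adjusted p = 0.0713). Of these, Nanog, Sox2 and Sall4 had an unadjusted p under 0.05, and they passed after adjustment in 6, 1 and 3 of 23 alternatives (lowest adjusted p = 0.0132, 0.0247 and 0.0277). The serum-free Dazl-GFP arrays of days 3 and 10 lay on different slides, and the other 3 pairs each shared a slide.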

How the results depend on the processing

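Each group holds 1 array of each line, which limits the precision. Over 65 member differences and up to 23 alternatives, 1354 of 1490 values kept their direction and their side of 0.05, and 22 differences changed sign in a setting other than a left-out array. The rise of Nanog in FBS at day 10 passed in all 23. Plain normexp, where 1 array (FBS Dazl-GFP at day 0) has 10 spots with a local background over 10 times the array's median, called 109 genes between the arms at day 3 and 58 in FBS at day 3, against 4819 and 2558 in the reported fit; with those backgrounds repaired 9652 and 8538 passed, and with the slide block 1456 and 782. Of the 154 named values of the gene lists, 140 were also called with quantile normalization, 144 with repaired normexp, 145 with the authors' table and 12 with plain normexp. Between the arms at day 3 the median over all genes was -0.21, and -0.08 after quantile normalization.

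The number of members past 0.05 changed as follows. Between the arms at day 0 it fell from 1 to 0 with quantile normalization, normexp, no filter, the mean over probes, no replicate block, the slide block and each left-out array. At day 3 it fell from 1 to 0 with normexp and the slide block, and was 0 to 1 with an array left out. At day 10 it rose from 0 to 1 with quantile normalization, repaired normexp, only genes above background on all 12 arrays, and a variance trend. In FBS at day 3 it fell from 2 to 1 with quantile normalization and to 0 with normexp, no replicate block and the slide block, and was 0 to 2 with an array left out. In FBS at day 10 it fell from 2 to 1 with normexp and with no replicate block, and was 1 to 2 with an array left out. Day 10 minus day 3 in FBS rose from 0 to 2 with repaired normexp. In serum-free medium at day 3 it moved from 1 to 0 with normexp, to 3 with repaired normexp, to 2 with only genes above background on all 12 arrays and to 3 with a variance trend, and was 0 to 2 with an array left out. The differences of the day 3 and of the day 10 changes each rose from 0 to 1 with repaired normexp and with a variance trend. Between the lines it fell from 1 to 0 with normexp and the slide block. In the contrast added after seeing the data it rose from 0 to 1 with quantile normalization, to 3 with repaired normexp, to 2 with only genes above background on all 12 arrays and to 2 with a variance trend, and was 0 to 1 with an array left out. The cause was not tested.

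The lines pair the arrays, and the fit with no replicate block (without the line) lost 4 calls: Zfp42 between the arms at day 0 (0.80, adjusted p = 0.44), Zfp42 in FBS at day 3 (0.76, adjusted p = 0.413) and day 10 (0.97, adjusted p = 0.311), and Nanog in FBS at day 3 (0.86, adjusted p = 0.0699). It changed no other call.

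Values that changed sign had not passed before and did not after. With the slide block Pou5f1 became 1.32, 0.99 and 1.20 between the arms at days 0, 3 and 10, 0.12 and 0.33 in FBS at days 3 and 10, 0.21 in serum-free medium at day 10, -0.33 and -0.12 in the differences of the day 3 and day 10 changes, 0.21 in that of the changes from day 3 to day 10 and -0.61 between the lines, and Zfp42 in serum-free medium at day 10 became -0.014. With quantile normalization Pou5f1 became 0.26 between the arms at day 3 and -0.13 in serum-free day 10 minus day 3, Sall4 -0.017 between the arms at day 10, and Sox2 0.008 in the day 10 changes. With normexp Sox2 became 0.004 between the arms at day 0 and 0.25 in FBS at day 3, Pou5f1 0.005 between the arms at day 3 (also when repaired), 0.02 in FBS at day 10, -0.19 in the day 10 changes and -0.014 between the lines, Sall4 -0.016 between the arms at day 10 (also when repaired) and 0.28 in FBS at day 10, and Nanog -0.12 in the day 3 changes. With the mean over probes Sall4 became -0.048 between the arms at day 0, 0.052 in serum-free medium at day 10, 0.24 in the day 10 changes and 0.045 between the lines.

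With an array left out, Pou5f1 ranged from -0.66 to 0.51 and from -0.70 to 0.24 between the arms at days 3 and 10, from -1.15 to 0.02, from -0.74 to 0.015 and from -0.38 to 0.79 in FBS (day 3, day 10 and their difference), from -0.63 to 0.31 and from -0.42 to 0.51 in serum-free medium (day 10, and day 10 minus day 3), from -0.23 to 0.95, from -0.27 to 0.67 and from -0.75 to 0.43 in the differences of changes (day 3, day 10, and day 3 to day 10), and from -0.10 to 0.25 between the lines. Sall4 ranged from -0.006 to 0.36 and from -0.15 to 0.26 between the arms at days 0 and 10, from -0.25 to 0.12 in FBS and from -0.40 to 0.019 in serum-free medium at day 10, and from -0.33 to 0.083 in the day 10 changes. Zfp42 in serum-free medium at day 10 ranged from -0.008 to 0.11, Nanog in the day 3 changes from -0.063 to 0.28 and Sox2 in the day 10 changes from -0.27 to 0.15.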
